A study of Homo sapiens with 6 samples.

Results

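The genes described here encode 6 matrix metalloproteinases, 3 of their tissue inhibitors (TIMPs) and the related protease ADAMTS9. They were taken by gene symbol from the deposited count table (protein-coding row if a symbol repeated), which gave 10 of the 58735 genes in it. RNA was sequenced from SKOV3ip1 cells, a human ovarian adenocarcinoma line labelled wild type. Cultures were transfected for 48 h with 2 µg of BARD1 siRNA (3 libraries) or of control siRNA (3 libraries), with a cationic lipid reagent in both groups. The design asks what silencing of BARD1, the RING partner of BRCA1, does to pathways of tumour angiogenesis. The titles label the libraries of each group as biological replicates. The sources used here give neither the siRNA sequences nor whether cultures were transfected separately. Each p-value therefore speaks only of the variation among these 6 libraries. One label calls the samples tumors, while the protocols describe cells in culture.

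Matrix metalloproteinases (MMPs) are zinc-dependent proteases that cut collagens, laminins and other matrix proteins. Most are secreted as latent proenzymes, and proteolytic removal of the propeptide activates them. TIMPs bind the active site and block it, so the balance of MMPs and TIMPs sets how fast matrix is turned over around tumour cells and growing vessels. MMP1 is an interstitial collagenase. MMP3 and MMP10 are stromelysins, with a broad range of substrates. MMP2 and MMP9 are gelatinases, which also cut the type IV collagen of basement membranes. MMP14 sits in the plasma membrane and activates the MMP2 proenzyme, a step in which TIMP2 acts as the bridge. ADAMTS9 is a secreted protease that cuts versican and aggrecan.

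The family is held together by a zinc-binding stretch in the catalytic domain. The 33 coding bases of that stretch are shown for the 7 proteases because they show how alike the members are, and which could exchange reads. They come from the GENCODE release 29 protein-coding transcript of each gene with the longest coding sequence that begins with ATG and holds whole codons. Capitals mark the codons of the 3 histidines that hold the zinc.
MMP1: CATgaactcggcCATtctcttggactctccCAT
MMP10: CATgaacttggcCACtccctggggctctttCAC
MMP3: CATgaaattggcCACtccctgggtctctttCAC
MMP2: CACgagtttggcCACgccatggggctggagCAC
MMP9: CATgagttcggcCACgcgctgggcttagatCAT
MMP14: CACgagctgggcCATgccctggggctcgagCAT
ADAMTS9: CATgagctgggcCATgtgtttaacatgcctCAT

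MMP10 and MMP3 differed at 2 of these 33 positions, while MMP10 and MMP1 differed at 8 and MMP3 and MMP1 at 9. Over the whole coding sequence MMP10 and MMP3 were identical at 85.2% of 1428 aligned bases. The value was 65.9% for MMP10 and MMP1 and 66.7% for MMP3 and MMP1. Of the 1709 stretches of 50 bases in the MMP10 transcript, 59 also occur in that of MMP3 and 0 in that of MMP1. The length of 50 bases was set for this comparison and was not taken from the reads. Reads that lie wholly within bases shared by both transcripts cannot be assigned to MMP10 or MMP3 with certainty. The sources used here do not say how such reads were counted.

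Totals ranged from 16661374 to 17743404 counts in BARD1 siRNA libraries and from 16621108 to 17704645 in control siRNA libraries. BARD1 itself averaged 7.37 ± 2.04 CPM, read counts scaled to a common library total with correction for composition, in BARD1 siRNA cells and 44.2 ± 5.84 CPM in control siRNA cells (SD, n = 3 each). Of the 9 epithelial and ovarian markers checked, 7 were tested, 2 were called higher and 4 lower. Among all genes tested, 22.0% were called higher and 20.3% lower. KRT7 (log2 fold change -0.98), KRT19 (-0.60), EPCAM (-0.24) and ERBB2 (-0.14) were lower, and PAX8 (0.75) and KRT18 (0.40) higher. Summed over all 9, most of it from ERBB2 and KRT8, they came to 4388 to 4503 CPM in BARD1 siRNA and 4290 to 4682 CPM in control siRNA libraries. WT1 and MUC16, also on that list, stayed under 1 CPM in both groups. The summed fibroblast markers were 17.4 to 23.2 CPM with BARD1 siRNA and 26.9 to 28.6 CPM with control siRNA. The largest part was COL3A1, which averaged 10.8 CPM with BARD1 siRNA and 19.2 CPM with control siRNA. COL1A1 went the other way, at 6.70 and 4.88 CPM, and COL1A2 was about level, at 1.43 and 1.40 CPM. The other fibroblast markers averaged under 1 CPM in both groups. Endothelial markers summed to at most 1.30 CPM and leukocyte markers to at most 0.114 CPM in any library, with PTPRC, CD3E, LYZ, MS4A1, CD68 and EMCN at 0 counts.

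Of the 10 genes, 9 had at least 1 count, and 8 passed the filter on low counts and were tested with edgeR's quasi-likelihood test, adjusted by Benjamini-Hochberg over all 15271 genes tested. Each of the 8 passed that filter in its control siRNA libraries alone. At an adjusted p of 0.05, 7 were higher and 1, TIMP2, was lower in BARD1 siRNA cells. Among all genes tested, 42.3% were called, 22.0% higher and 20.3% lower. Of all calls, 51.9% were higher, a share that was 41.5% with upper-quartile scaling and 42.2% with library size alone. The CPM values of the groups did not overlap for 7 of the 8, against 50.4% of all genes tested. The median log2 fold change of the 8 was 1.57, against -0.01 over all genes tested. Of the 8, 5 were called higher by at least 2-fold, namely MMP10, MMP14, ADAMTS9, MMP1 and MMP3, a size that 4.48% of all genes tested reached. None was lower by at least 2-fold, against 1.94% of all genes tested. The 10 genes were chosen with earlier results of these data known. These shares and the median therefore describe the chosen genes only and are no test of the family. Because the libraries come from whole cultures, a change in the share of expressing cells and a change of RNA per cell cannot be told apart.

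**Figure D1:**
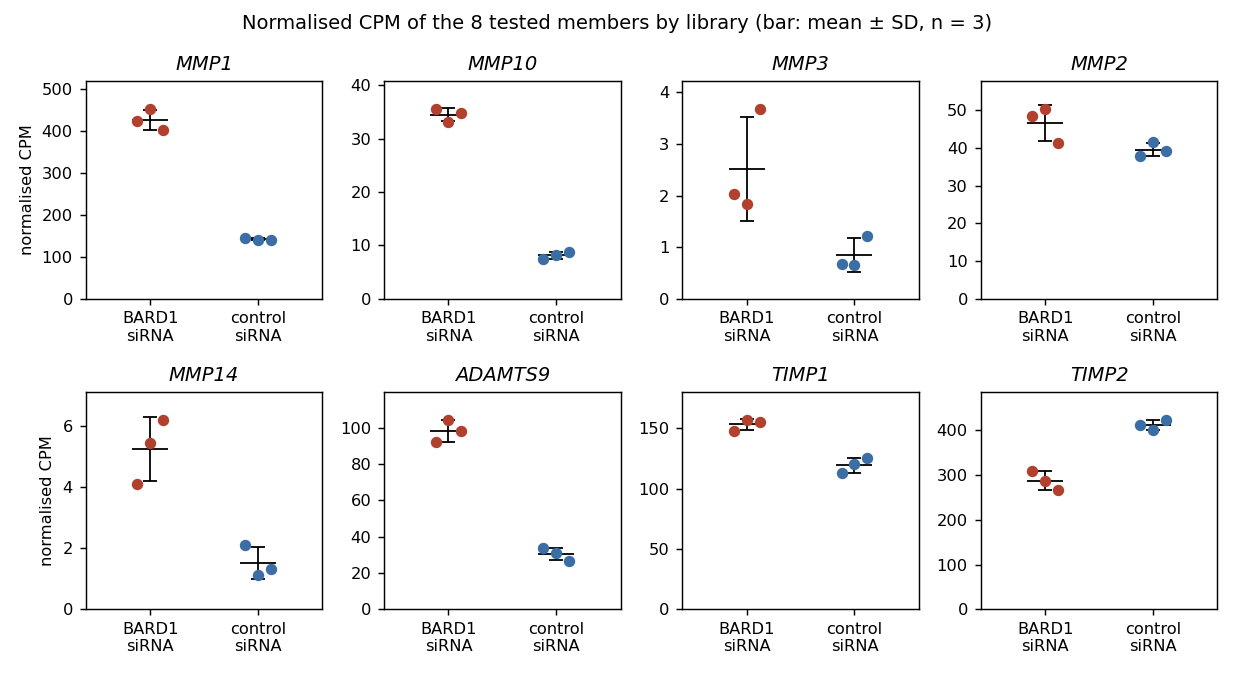
Normalised CPM (vertical axes, each from 0) of the 8 tested genes in each library, with BARD1 siRNA in red and control siRNA in blue; points are libraries, bars the mean ± SD of 3. The groups do not overlap for any gene but MMP2, and TIMP2 is the one gene with lower values in BARD1 siRNA libraries.

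The interstitial collagenase gene MMP1 (ENSG00000196611, GRCh38 chromosome 11, 102789920 to 102798160, minus strand) had the most counts among the protease genes. It stood at 423, 450.2 and 401 CPM in the BARD1 siRNA libraries, against 144, 141 and 139 CPM in the control siRNA libraries. Every BARD1 siRNA library lay far above every control siRNA library, and the control values lay close together. The means were 425 ± 24.5 CPM in BARD1 siRNA and 141 ± 2.48 CPM in control siRNA cells (SD, n = 3 each). MMP1 thus rose 3.01-fold (log2 fold change 1.59, SE 0.05, edgeR adjusted p = 1.61e-31). On the opposite strand, the pseudogene WTAPP1 shares 150 of the 1970 exonic bases of MMP1. WTAPP1 had 39 counts over the BARD1 siRNA and 17 over the control siRNA libraries, while MMP1 had 21492 and 7442.

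The stromelysin gene MMP10 (ENSG00000166670, chromosome 11, 102770503 to 102780628, minus strand) showed the largest log2 fold change of the 8 tested. Its values were 35.5, 33.1 and 34.8 CPM with BARD1 siRNA, against 7.45, 8.21 and 8.81 CPM with control siRNA. The groups were well apart and the libraries of each group were alike. MMP10 rose 4.22-fold (log2 fold change 2.08, SE 0.12, edgeR adjusted p = 1.66e-21), from libraries that held 577, 560 and 606 counts with BARD1 siRNA and 131, 140 and 159 with control siRNA.

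The other stromelysin gene, MMP3 (ENSG00000149968, chromosome 11, 102835801 to 102843803, minus strand), was far less abundant. It had 33, 31 and 64 counts in the BARD1 siRNA libraries, against 12, 11 and 22 in the control siRNA libraries. No control siRNA library reached the lowest BARD1 siRNA library, and replicate 3 was the highest library of each group. On the normalised scale the means were 2.51 ± 1.01 CPM in BARD1 siRNA and 0.848 ± 0.321 CPM in control siRNA cells (SD, n = 3 each), a 2.94-fold rise (log2 fold change 1.56, SE 0.40, edgeR adjusted p = 0.00134). Without BARD1 siRNA replicate 3 the log2 fold change was 1.17 and the call was lost (edgeR adjusted p = 0.0568). MMP10 had 1743 counts over the BARD1 siRNA and 430 over the control siRNA libraries, and how many MMP10 reads were counted for MMP3 was not tested.

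Both gelatinase genes moved little or could not be tested. MMP2 (ENSG00000087245, chromosome 16, 55389700 to 55506691, plus strand) stood at 48.4, 50.2 and 41.2 CPM with BARD1 siRNA, against 38.0, 41.5 and 39.3 CPM with control siRNA. BARD1 siRNA replicate 3 fell within the control range, so the groups overlapped. The 1.18-fold difference passed the threshold (log2 fold change 0.24, SE 0.09, edgeR adjusted p = 0.0222) but depended on scaling and on single libraries. It was lost with upper-quartile scaling (log2 fold change 0.17, edgeR adjusted p = 0.105) and with library size alone (0.18, edgeR adjusted p = 0.0932). Without control siRNA replicate 1 the log2 fold change was 0.20 (edgeR adjusted p = 0.103), without BARD1 siRNA replicate 1 it was 0.21 (edgeR adjusted p = 0.0947), and without BARD1 siRNA replicate 2 it was 0.18 (edgeR adjusted p = 0.166).

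MMP9 (ENSG00000100985, chromosome 20, 46008908 to 46016561, plus strand) had 9, 0 and 6 counts in the BARD1 siRNA libraries and 4, 0 and 3 in the control siRNA libraries, too few for the filter. A library without any count stood in each group, and the values overlapped. With no filter on low counts its log2 fold change was 1.13 with an SE of 1.21 (edgeR adjusted p = 0.568), so a difference was not detectable at this depth. Of its 2336 exonic bases, 430 are shared with the antisense gene SLC12A5-AS1, which had 3 counts over the BARD1 siRNA and 8 over the control siRNA libraries.

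The membrane-anchored MMP14 (ENSG00000157227, chromosome 14, 22836557 to 22849027, plus strand) stood low in both groups. It had 4.12, 5.44 and 6.20 CPM with BARD1 siRNA, against 2.10, 1.11 and 1.33 CPM with control siRNA. Those values rest on 67, 92 and 108 counts in the BARD1 siRNA libraries and 37, 19 and 24 in the control siRNA libraries. The groups did not overlap, although both were spread widely relative to their means. MMP14 rose 3.45-fold (log2 fold change 1.79, SE 0.28, edgeR adjusted p = 5.96e-07).

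ADAMTS9 (ENSG00000163638, chromosome 3, 64515654 to 64688000, minus strand), the versican- and aggrecan-cutting protease, stood at 92.2, 104 and 98.4 CPM with BARD1 siRNA, against 33.6, 30.8 and 26.7 CPM with control siRNA. All 3 BARD1 siRNA libraries lay well above all 3 control siRNA libraries. The rise was 3.23-fold (log2 fold change 1.69, SE 0.08, edgeR adjusted p = 1.38e-24). Its antisense transcript ADAMTS9-AS1 shares 174 of the 10680 exonic bases of ADAMTS9. It had 16, 19 and 26 counts in the BARD1 siRNA libraries, against 1, 1 and 9 in the control siRNA libraries, and rose as well (log2 fold change 2.49, SE 0.64, edgeR adjusted p = 0.00120). No strand setting is named in the sources used here, so reads of the shared bases cannot be assigned to either gene, and their part in the rise of ADAMTS9-AS1 was not tested. Another antisense gene, ADAMTS9-AS2, shares 0 exonic bases with ADAMTS9 and was not called (log2 fold change -0.76, SE 0.49, edgeR adjusted p = 0.221). It had 35 counts over the BARD1 siRNA and 62 over the control siRNA libraries, and its CPM values were lower with BARD1 siRNA without overlap.

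The inhibitors went in opposite directions. TIMP1 (ENSG00000102265, chromosome X, 47582313 to 47586789, plus strand), an inhibitor of most secreted MMPs, stood at 148, 157 and 155 CPM with BARD1 siRNA, against 113, 120.2 and 125 CPM with control siRNA. The groups did not overlap, but the step between them was small, a 1.28-fold rise (log2 fold change 0.36, SE 0.06, edgeR adjusted p = 5.90e-07). TIMP2 (ENSG00000035862, chromosome 17, 78852977 to 78925387, minus strand), which both inhibits MMPs and bridges MMP14 to the MMP2 proenzyme, stood at 308, 286 and 266 CPM with BARD1 siRNA, against 411, 399.7 and 422 CPM with control siRNA. Every BARD1 siRNA library lay below every control siRNA library. TIMP2 was 1.43-fold lower (log2 fold change -0.52, SE 0.05, edgeR adjusted p = 1.87e-12). Of its 5633 exonic bases, 565 are shared with 2 genes. The same-strand gene CEP295NL shares 198 and had 18 counts over the BARD1 siRNA and 6 over the control siRNA libraries. The antisense gene AC022966.1 shares 367 and had 0 counts in both groups. TIMP2 itself had 14488 and 21669 counts.

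TIMP3 (ENSG00000100234, chromosome 22, 32801701 to 32863043, plus strand), the inhibitor that stays bound to the matrix and also blocks ADAMTS proteases, had 0 counts in all 6 libraries. A count of 0 over the 3 libraries of a group allows up to 3 counts. None of its 4603 exonic bases is shared with an exon of another annotated gene per GENCODE release 29. The remaining family member TIMP4 had 6 counts over the BARD1 siRNA and 3 over the control siRNA libraries, which left it untested.

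Levels of different genes were compared per length, in TPM, which divide the counts by the deposited gene lengths and scale every library to the same total. For these genes the lengths count every annotated exonic base, not the transcripts in use, so the order of genes depends on them. In BARD1 siRNA cells the order was led by MMP1 at 748 ± 44.4 TPM, followed by TIMP1 at 345 ± 9.99 TPM and TIMP2 at 177 ± 13.5 TPM (SD, n = 3 each). In control siRNA cells the same genes stood at 259 ± 3.79 TPM for MMP1, 279.7 ± 15.3 TPM for TIMP1 and 263 ± 7.46 TPM for TIMP2. There TIMP1 and TIMP2 overlapped across libraries, as did TIMP2 and MMP1, so their order was not resolved, whereas in BARD1 siRNA cells no 2 of these genes overlapped.

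Below them, MMP10 reached 68.0 ± 2.39 TPM in BARD1 siRNA and 16.7 ± 1.44 TPM in control siRNA cells, and stood above MMP2 with BARD1 siRNA and below it with control siRNA. MMP2 stood at 32.8 ± 3.41 TPM with BARD1 siRNA and 28.9 ± 1.35 TPM with control siRNA. ADAMTS9 overlapped MMP2 in BARD1 siRNA cells, at 31.9 ± 1.93 TPM, and lay below MMP10 in control siRNA cells, at 10.3 ± 1.13 TPM. MMP3 and MMP14 overlapped in both groups, at 4.25 ± 1.70 and 4.08 ± 0.807 TPM with BARD1 siRNA and at 1.49 ± 0.569 and 1.22 ± 0.417 TPM with control siRNA.

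**Figure D2:**
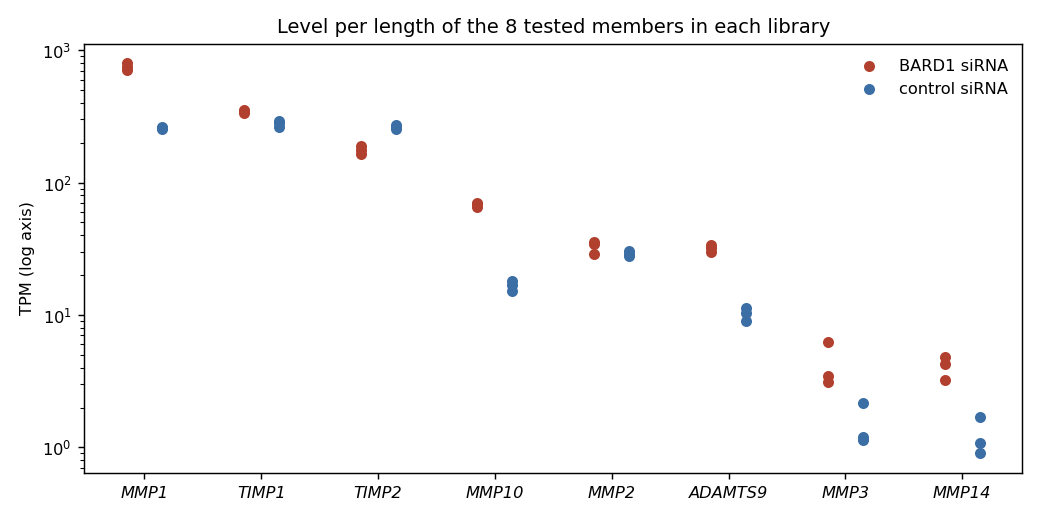
TPM (log axis) of the 8 tested genes in each library, BARD1 siRNA in red to the left of control siRNA in blue. MMP1, TIMP1 and TIMP2 lie together in control siRNA libraries and apart in BARD1 siRNA libraries, where MMP1 is on top at 748 ± 44.4 TPM.

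Ratios within a library do not depend on scaling between libraries. The TPM ratio of MMP1 to TIMP1 was 2.24, 2.25 and 2.03 in the BARD1 siRNA libraries, against 0.996, 0.916 and 0.868 in the control siRNA libraries. That is a 2.34-fold shift with no overlap of the groups. For MMP1 to TIMP2 the ratios were 3.92, 4.50 and 4.32 with BARD1 siRNA, against 1.00, 1.01 and 0.941 with control siRNA, a 4.31-fold shift. By the deposited gene lengths, the protease transcript was about level with each inhibitor transcript in control siRNA cells and above each in BARD1 siRNA cells. The ratio in a library depends on those lengths, whereas the computed shift between groups does not.

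The ratio of MMP14 to TIMP2, partners in MMP2 activation, was 0.0169, 0.0240 and 0.0294 with BARD1 siRNA, against 0.00646, 0.00352 and 0.00397 with control siRNA. TIMP2 transcripts outnumbered those of MMP14 in every library. MMP2 to TIMP2 shifted 1.69-fold, MMP10 to TIMP1 shifted 3.30-fold and TIMP1 to TIMP2 shifted 1.84-fold, each higher in all 3 BARD1 siRNA libraries. These 6 ratios were chosen after the values had been seen. A two-sided exact permutation test gave each p = 0.1, also after Benjamini-Hochberg adjustment, which is the smallest p that 3 against 3 libraries allow.

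**Figure D3:**
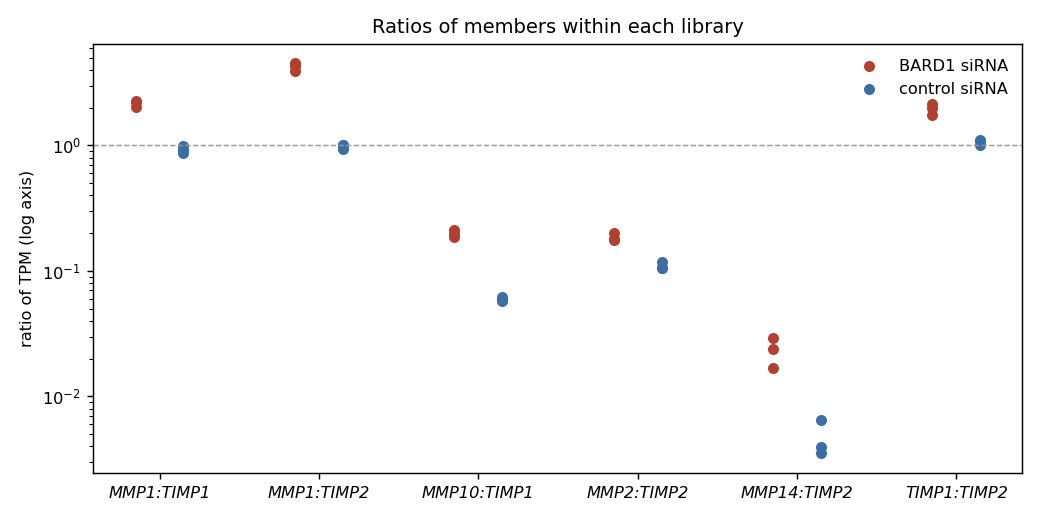
Ratio of TPM values (log axis) of 6 pairs of genes in each library, BARD1 siRNA in red to the left of control siRNA in blue; the dashed line marks equal levels. Every ratio is higher in all 3 BARD1 siRNA libraries. By the deposited gene lengths, the MMP1 to TIMP1 ratio crosses the line, at 2.03 to 2.25 with BARD1 siRNA and 0.868 to 0.996 with control siRNA.

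MMP10, MMP1 and MMP3 are neighbours in a cluster of 9 MMP genes on the minus strand of chromosome 11, which spans 435 kb. MMP10 and MMP1 are 9.29 kb apart, and MMP1 and MMP3 are 37.6 kb apart. Of the 9 genes, 4 could be tested. MMP8 and MMP12, on either side of the 3 that rose, and MMP13 had few counts in both groups, with 2 over the BARD1 siRNA and 0 over the control siRNA libraries for MMP8, 8 and 8 for MMP12, and 20 and 18 for MMP13. At the far end MMP7, which encodes matrilysin, averaged 28.5 ± 2.98 CPM with BARD1 siRNA and 24.3 ± 1.11 CPM with control siRNA (SD, n = 3 each). Its log2 fold change of 0.23 (SE 0.10) did not pass (edgeR adjusted p = 0.0614), except without BARD1 siRNA replicate 1, at 0.31 (edgeR adjusted p = 0.0213).

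**Figure D4:**
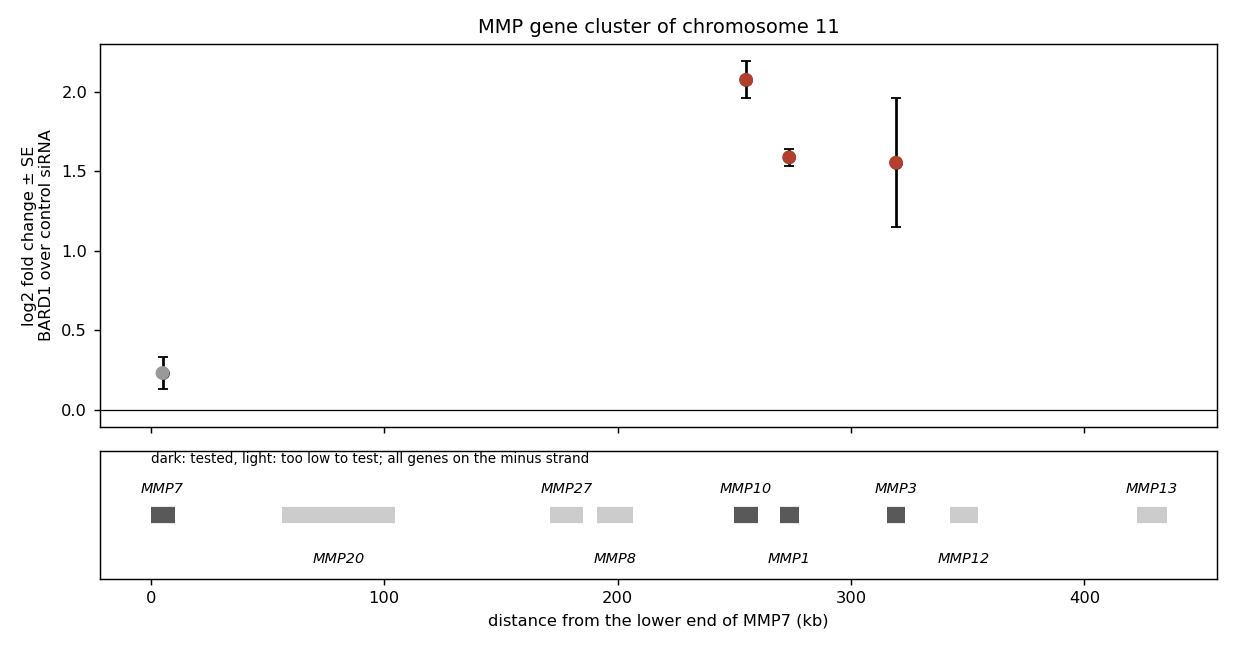
MMP gene cluster of chromosome 11 drawn to scale, with distance in kb from the lower end of MMP7; the upper panel gives log2 fold changes ± SE of the 4 tested genes (red, called higher). MMP10, MMP1 and MMP3 lie side by side at 2.08, 1.59 and 1.56, and MMP7 is at 0.23.

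Collagenase and stromelysin promoters are known for binding AP-1, the FOS and JUN transcription factors, and ETS factors beside it. RefSeq promoters (GRCh38.p14) were matched by symbol for MMP10, MMP14, TIMP1 and TIMP3, and those of MMP1, MMP2, MMP3, MMP9, TIMP2 and ADAMTS9 were not analysed here. The 100 bases before the start of the gene that rose most, MMP10, and 100 bases upstream of MMP14, which rose too, are shown to set a promoter with AP-1 letters beside one without. Capitals mark matches to TGANTCA (the AP-1 site), AGGAAG (an ETS core) or TATAAA, searched on both strands.
MMP10 (chr11:102780629-102780728, minus strand): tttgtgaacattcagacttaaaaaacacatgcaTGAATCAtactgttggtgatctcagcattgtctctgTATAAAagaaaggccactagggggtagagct
MMP14 (chr14:22836457-22836556, plus strand): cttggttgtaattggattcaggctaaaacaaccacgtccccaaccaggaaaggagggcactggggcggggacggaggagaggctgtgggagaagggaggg

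In MMP10 the letters TGAATCA began 67 bases and TATAAA 31 bases before the start site. The 250 bases upstream of MMP14 and of TIMP3 held none of these motifs, and in TIMP1 AGGAAG began 87 bases upstream, within a GENCODE exon of the gene. Of 35116 RefSeq promoters, 6.57% held TGANTCA in the same 250 bases, 28.7% held AGGAAG and 10.7% held TATAAA. The motifs do not overlap each other in the window shown, and a match is a description of letters only.

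All 11 AP-1 and ETS factor genes checked rose in BARD1 siRNA cells, against 22.0% of all genes tested, with a median log2 fold change of 0.88. JUN, the main AP-1 partner of FOS, averaged 649 ± 11.9 CPM in BARD1 siRNA and 175 ± 10.1 CPM in control siRNA cells (log2 fold change 1.89, SE 0.05, edgeR adjusted p = 1.68e-35). ETS1 rose by 1.84 on the log2 scale, FOS by 1.65 and FOSB by 4.87, the last to 15.7 ± 2.58 CPM with BARD1 siRNA against 0.527 ± 0.264 CPM with control siRNA. These genes were listed with earlier results of these data known.

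The wider lists are read against all genes tested, of which 22.0% were called higher and 20.3% lower, and with so few genes in each list their counts are descriptions only. Of 17 other MMP genes, 8 were tested, 0 rose and 1 fell in the edgeR test, with a median log2 fold change of 0.17. The other 9 genes were too low to test. DESeq2 and limma-voom also called 0 of them higher, and MMP7 was the 1 higher gene at an unadjusted edgeR p under 0.05. The one that fell was the membrane-type gene MMP16, at 6.02 ± 1.26 CPM with BARD1 siRNA and 10.9 ± 1.98 CPM with control siRNA (log2 fold change -0.86, SE 0.18, edgeR adjusted p = 6.21e-05). MMP15 and MMP24, also membrane-type, had log2 fold changes of 0.09 and 0.00 and did not pass. The 17 genes are those left after the members were chosen with earlier results of these data known. A contrast with the members therefore carries that choice.

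Among 18 other ADAMTS genes, 12 were tested, 2 rose and 1 fell, against the same shares of all genes, and the median log2 fold change was 0.24. ADAMTS1, an anti-angiogenic relative of ADAMTS9, averaged 221 ± 5.91 CPM with BARD1 siRNA and 171 ± 3.62 CPM with control siRNA (log2 fold change 0.37, SE 0.05, edgeR adjusted p = 3.55e-08). ADAMTS7 had a log2 fold change of 0.53 (edgeR adjusted p = 0.0351), and ADAMTS15 fell by 0.65. The call of ADAMTS7 was lost in 7 of 16 alternatives. Its edgeR adjusted p was 0.0551 without control siRNA replicate 1, 0.114 without control siRNA replicate 3, 0.1000 without BARD1 siRNA replicate 1 and 0.115 without BARD1 siRNA replicate 3.

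**Figure D5:**
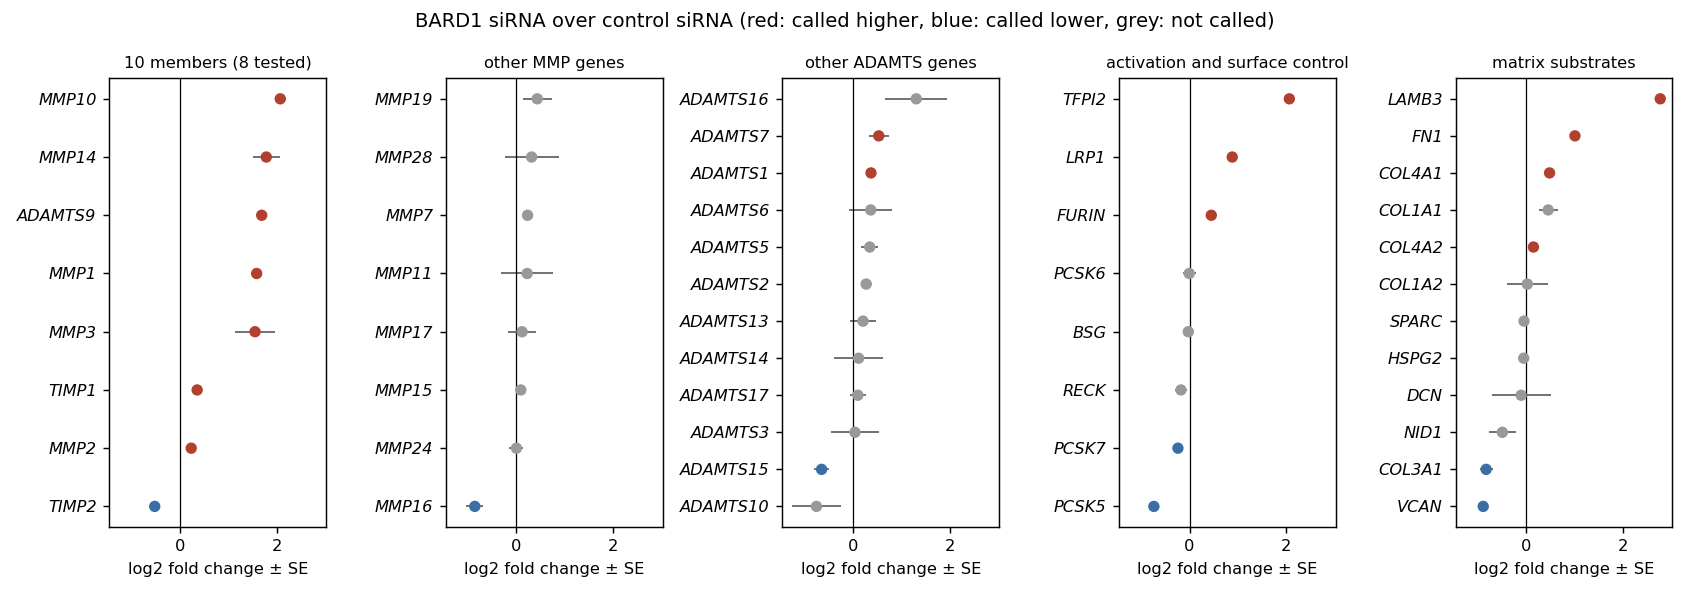
Log2 fold change ± SE (horizontal axes) of every tested gene of the members and of 4 wider lists, BARD1 siRNA over control siRNA, with called genes in red (higher) or blue (lower). Of the 8 tested members 7 are red, among them MMP2, whose call depends on the setting, beside 22.0% of all genes tested. The members were chosen with earlier results of these data known, and the difference between lists was not tested.

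Of 9 genes that activate or restrain MMPs or act on them at the cell surface, 8 were tested, 3 rose and 2 fell, and the median log2 fold change was -0.02. Of all genes tested, 22.0% were higher and 20.3% lower. TFPI2, a matrix-bound inhibitor of serine proteases such as plasmin, rose 4.18-fold, to 742 ± 6.18 CPM in BARD1 siRNA against 177 ± 8.77 CPM in control siRNA cells (log2 fold change 2.06, SE 0.05, edgeR adjusted p = 1.81e-37). LRP1, the endocytic receptor that clears several MMPs, rose by 0.88 on the log2 scale. The proprotein convertase genes divided, with FURIN, which cuts the MMP14 proenzyme, higher by 0.45 and PCSK5 lower, at a log2 fold change of -0.74. The membrane-anchored MMP inhibitor RECK (-0.18) and the MMP inducer BSG (-0.03) did not pass, and the circulating protease trap A2M had 0 counts.

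PCSK7 was the other that fell, just past the threshold (log2 fold change -0.24, edgeR adjusted p = 0.0496). The call was lost without any of 5 libraries. The edgeR adjusted p was 0.145 and 0.0801 without control siRNA replicates 1 and 2, and 0.0877, 0.105 and 0.0957 without BARD1 siRNA replicates 1, 2 and 3. With the replicate number as a block it was 0.0523.

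Among 13 genes of matrix proteins that MMPs or ADAMTS9 cut, 12 were tested, 4 rose and 2 fell, against 22.0% and 20.3% of all genes tested, and the median log2 fold change was -0.01. The laminin chain gene LAMB3 rose 6.84-fold, to 2083 ± 68.0 CPM with BARD1 siRNA against 304 ± 12.5 CPM with control siRNA. FN1, which encodes fibronectin, rose 2.01-fold, and the type IV collagen genes COL4A1 and COL4A2 rose by 0.49 and 0.15 on the log2 scale. COL4A2 was no longer called with upper-quartile scaling (edgeR adjusted p = 0.172), with library size alone (edgeR adjusted p = 0.136), without control siRNA replicate 3 (edgeR adjusted p = 0.122) or without BARD1 siRNA replicate 2 (edgeR adjusted p = 0.0888).

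VCAN, which encodes versican, was 1.85-fold lower, at 327 ± 11.3 CPM with BARD1 siRNA and 604 ± 40.7 CPM with control siRNA (log2 fold change -0.89, SE 0.05, edgeR adjusted p = 2.40e-21). A fibrillar collagen gene, COL3A1, fell as well, at a log2 fold change of -0.83, while COL1A1 (0.46) did not pass. COL3A1 also stands among the fibroblast markers, of which it was the single one called of 4 tested, against 42.3% of all genes tested. ACAN, which encodes aggrecan, had 0 counts in all 6 libraries.

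Protein-coding genes were ranked by the correlation of their log2 CPM with MMP10 over the 6 libraries, without those of low mean level. Those most like MMP10 were DNAJB9, MANF and YARS, each with a Pearson r that rounds to 1.00. Their log2 fold changes were 3.24, 1.42 and 0.48. DNAJB9 encodes a co-chaperone of the endoplasmic reticulum, MANF a protein induced by stress in that compartment and YARS a tyrosyl-tRNA synthetase. Of 10887 genes compared, 382 had an r above 0.99. The 6 libraries share the step between the groups, so the r is a description of these libraries.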

How the data were processed

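RNA of 6 SKOV3ip1 libraries was measured by poly(A) RNA sequencing, per the labels' protocols. The authors deposited 1 table of whole-number counts, a column for each library, with no scaling applied. CASAVA and HISAT2 with GRCh38 (hg38) stand in the submitters' processing notes. The sources used here name no versions, counting program, annotation or strand setting. Gene lengths in the same table served for TPM values. The 10 genes have the same start, end and exonic length in GENCODE release 29.

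Counts were fitted with edgeR 4.0.16 in R 4.3.3 (robust glmQLFit and glmQLFTest, TMM factors, group alone, filterByExpr with a minimum count of 10), which left 15271 genes. Benjamini-Hochberg adjustment ran over all of them, with a threshold of 0.05. SEs were derived from the fold change and F. Values of 0 counts use a floor of 3 counts, which covers counting error only.

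Other settings tried were DESeq2 1.42.0, limma-voom (limma 3.58.1), RLE or upper-quartile factors, library size alone, other filters, protein-coding genes only, a replicate block, no robust estimation and leaving out each library. Sequences come from GENCODE and RefSeq tables. Identities came from global alignment in Biopython 1.88. The members and lists were chosen with earlier results of these data known. Named genes are all members, BARD1, some of the overlapping and neighbouring genes, and the 3 genes most like the member that moved most. Up to 4 called genes per wider list were also named, by absolute log2 fold change, where the mean log2 CPM was not below 0. PCSK7, COL4A1, COL4A2, EPCAM, ERBB2 and genes named because they did not pass or had no counts were chosen after their values were seen. A gene of the matrix list is not reported here and was left out of its counts.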

Additional observations from a re-analysis of the deposited data

How the results depend on the processing

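Of 128 alternative values of the 8 tested members, 122 kept their direction and call, and the other 6 kept their direction only: 5 for MMP2 and 1 for MMP3. Ranges of the log2 fold change over the 16 alternatives were 1.52 to 1.63 for MMP1, 2.01 to 2.13 for MMP10, 1.61 to 2.09 for MMP14, 1.61 to 1.77 for ADAMTS9, 0.29 to 0.39 for TIMP1 and -0.58 to -0.47 for TIMP2. Over libraries left out, 6 to 7 members were called higher and 1 to 1 lower. Among all genes, 3004 to 3362 were then called higher and 2651 to 3075 lower. Other MMP genes called higher numbered 0 to 1 over libraries left out. Other ADAMTS genes called higher numbered 1 with upper-quartile scaling, library size alone or no filter, and 1 to 3 over libraries left out. Genes of MMP activation and surface control called lower numbered 1 with DESeq2, no filter or the replicate block, and 1 to 2 over libraries left out. Matrix genes called higher numbered 3 to 4 over libraries left out. The cause of these shifts was not tested. With upper-quartile scaling 2815 genes were higher and 3975 lower, with library size alone 2853 and 3906, against 3355 and 3107 with TMM, so the share of higher calls was 41.5%, 42.2% and 51.9%.

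No shared effect of the replicate numbers of the titles was seen. Deviations of same-numbered libraries from their group means correlated at -0.009, -0.015 and -0.022. No BARD1 siRNA library correlated best with the control siRNA library of its own number. Deviations over all genes also carry counting error, so these values cannot exclude a pairing. With the replicate block 3390 genes were higher and 3121 lower, and members numbered 7 higher and 1 lower. At about 17 reads per CPM, MMP9, TIMP3 and TIMP4 could not be resolved and MMP3 and MMP14 rest on few reads.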
